A study of Homo sapiens with 8 samples.

Results

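The lysosomal genes described here are a list of 41 genes, made up of 22 hydrolases, 2 luminal proteins that are no enzymes (PSAP and GRN), 8 membrane proteins, 7 parts of the V-ATPase and the transcription factors TFEB and TFE3. Of the 41, 40 had a probe set listed with that symbol alone and were measured, out of 22465 genes on the arrays. GLB1, the lysosomal beta-galactosidase, shares its only probe set with another gene and was not analysed. NEU1 was listed with 8 probe sets, which held only 2 distinct sets of values, and ATP6V1D with 2. For each, the one that was brightest on average over all arrays was used. Affymetrix human transcriptome arrays were used to measure expression in BPH-1, an immortalized epithelial line derived from human prostate with benign hyperplasia, and in WPMY-1, an immortalized myofibroblast line derived from human prostate stroma. Each line was treated with 250 μg/ml Pao extract, made from bark of the tree Pao Pereira, or with vehicle, with 2 arrays in each of the 4 groups and 8 arrays in all. According to the labels and a figure legend of the study the treatment lasted 48 h, while the methods of the study name a shorter time. BPH-1 cells were grown in RPMI1640 and WPMY-1 cells in DMEM, so line and medium cannot be told apart in a comparison of the lines.

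Lysosomes are the acid compartment in which cells break down proteins, glycans and lipids that arrive by endocytosis and autophagy. Soluble hydrolases do the digestion, the V-ATPase pumps protons into the lumen, and membrane proteins protect the limiting membrane and move the products and ions out. TFEB and TFE3 enter the nucleus when the kinase mTORC1 is inactive and bind an E-box motif, known as the CLEAR element, that lies near the start of many lysosomal genes. Much of their control is by phosphorylation, which an array of mRNA does not read.

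All values are log2 RMA values, on which a difference of 1 is a doubling, and they are compared only for the same probe set. Epithelium markers (17 of 20 measured) had medians between 9.29 and 9.47 on the BPH-1 arrays and between 5.45 and 5.63 on the WPMY-1 arrays. Stroma markers (19 of 20 measured) had medians between 5.41 and 5.45 on the BPH-1 arrays. In WPMY-1 cells they had medians of 7.40 and 7.08 with Pao extract and 8.02 and 7.65 with vehicle, and the part of this difference in the results below was not tested. Among them MFAP5 averaged 3.17 in WPMY-1 vehicle cells, and ACTA2, a myofibroblast actin, averaged 6.01 in BPH-1 vehicle cells and 6.20 in WPMY-1 vehicle cells. Leukocyte markers (15 of 16 measured) had medians between 4.11 and 4.35 over all arrays, taken here as near background, and endothelium markers (10 of 10) between 4.10 and 4.28. The lowest member was TFEB, at 5.17 to 5.40, so all members lay above that median level. Single leukocyte markers lay above it too, and in BPH-1 vehicle cells CD79A averaged 5.59 and TYROBP 6.16. A value such as that of TFEB therefore does not by itself show expression. In bulk samples, fewer cells of a type and less RNA per cell cannot be told apart. No label says that replicate arrays were made from separate cultures, so p-values here rest on the spread between these arrays alone, and that spread may be technical. With 2 arrays against 2, the smallest p that an exact permutation test can give is 0.333 (two-sided), so the tests are from limma, which shares the spread across genes and groups.

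A RefSeq promoter (GRCh38.p14), from 250 bases before the gene start to 50 after it, was at hand for 29 of the 41 members. The letters CACGTG, the E-box, were found on either strand in 9 of the 29 (31.0%), against 7.43% of all 27305 promoters. The longer TCACGTGA, the core of the CLEAR element, which holds CACGTG, was found in 5 of the 29 (17.2%), namely CTSA, GAA, LAMP1, MCOLN1 and ATP6V0D1, against 1.04% of all promoters. Among genes tested on the arrays that had a promoter, 8.56% held the E-box and 1.36% the CLEAR core. Among 93 lysosomal genes outside the list it was 24.7% and 12.9%, so the motifs are not particular to the members. TCACNCCAC, the letters of a sterol response element, was found in 1 member, TFEB (3.45%), against 1.15% of all promoters. The promoters of 4 members with the CLEAR core are shown because they carry the best known motif of these genes, from base -100 to base -1 before the start, with the core in capitals.

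ATP6V0D1, chr16:67481158-67481257, minus strand: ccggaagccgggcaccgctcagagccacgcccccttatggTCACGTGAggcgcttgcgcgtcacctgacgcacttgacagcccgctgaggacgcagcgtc
CTSA, chr20:45891235-45891334, plus strand: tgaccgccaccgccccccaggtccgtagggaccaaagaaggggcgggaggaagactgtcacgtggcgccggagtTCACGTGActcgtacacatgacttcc
LAMP1, chr13:113297139-113297238, plus strand: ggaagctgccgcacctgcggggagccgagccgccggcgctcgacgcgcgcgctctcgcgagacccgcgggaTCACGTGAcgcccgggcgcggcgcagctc
MCOLN1, chr19:7522524-7522623, plus strand: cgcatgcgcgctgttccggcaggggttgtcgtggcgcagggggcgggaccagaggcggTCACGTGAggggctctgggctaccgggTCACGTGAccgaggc

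ATP6V0D1 held 1 core and MCOLN1 held 2. CTSA held 1 core and, in lower case upstream of it, 1 further E-box, whose first base lay at -42. LAMP1 held a second copy that spans the start and is not shown whole, and 4 more E-boxes further upstream. The stretch of NEU1 that follows, from base -150 to base -91, is shown with its only E-box in capitals because NEU1 was the member with the largest log2 fold change in WPMY-1 cells, and it was chosen after its values were seen.

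NEU1, chr6:31862912-31862971, minus strand: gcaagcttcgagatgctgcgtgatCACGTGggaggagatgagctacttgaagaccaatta

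The E-box of NEU1 began at -126 and is not part of a CLEAR core. MCOLN3, the member with the largest log2 fold change in BPH-1 cells, held none of the 3 motifs in its window.

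**Figure D1:**
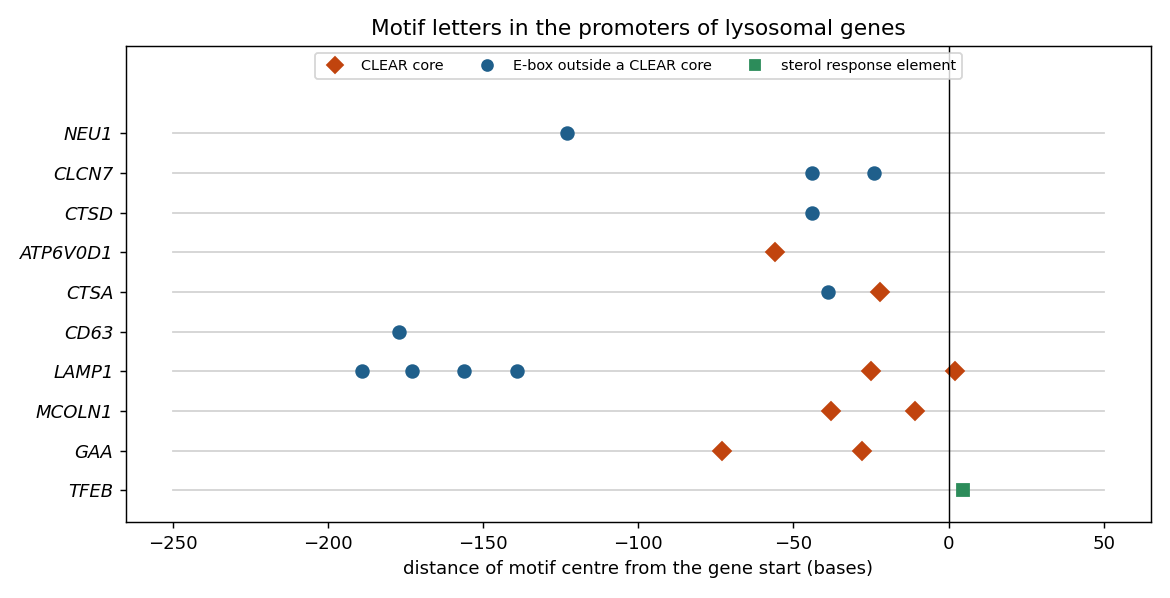
Position of the motif letters in the promoters of the 10 members that held at least 1 of them. The horizontal axis is the distance of the motif centre from the gene start in bases, each grey line is the window of 1 promoter, diamonds are CLEAR cores, circles are other E-boxes and the square is the sterol response element. All CLEAR cores lie within 100 bases of the start, and 1 of LAMP1 spans it.

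With Pao extract, most members had a higher mean than with vehicle in both lines, by small amounts, and none passed limma's test. The mean was higher in 33 of 40 members in BPH-1 cells, where it was higher for 43% of all genes, and in 38 of 40 in WPMY-1 cells, where it was higher for 59.8% of all genes. The median log2 fold change of the members was 0.10 in the BPH-1 line and 0.19 in the WPMY-1 line, beside -0.01 and 0.03 over all genes. With each array centred on its median, the mean was higher in 34 members in each line. The arrays within a group also differed. Array 2 minus array 1 had a median over the members of 0.07 with Pao extract and 0.09 with vehicle in BPH-1 cells. It was 0.17 and 0.20 in WPMY-1 cells, and 0.01 to 0.04 over all genes in any group. Single arrays moved the median log2 fold changes of the members. Without vehicle replicate 1 or Pao replicate 2 the median of the members was 0.04 and 0.05 in BPH-1 and 0.08 and 0.07 in WPMY-1 cells. Without vehicle replicate 2 or Pao replicate 1 of WPMY-1 it was 0.32 and 0.30. The number of members with a higher mean was 26 and 27 of 40 in BPH-1 and 30 and 31 in WPMY-1 without vehicle replicate 1 or Pao replicate 2 of the line, so most stayed above 0. NEU1, MCOLN3, TPP1 and CTNS led in WPMY-1 cells, by up to 1.76-fold for NEU1, and MCOLN3 led in BPH-1 cells at 1.52-fold.

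At limma's adjusted p under 0.05, 0 of 40 members were called higher and 0 lower in BPH-1 cells (0% and 0% of all genes). In WPMY-1 cells 0 were called higher (0.0445% of all genes) and 0 lower (0.0223%). The lowest adjusted p among the members was 0.764 in the BPH-1 line and 0.144 in the WPMY-1 line, both for MCOLN3. At an unadjusted p under 0.05, 6 members were higher in BPH-1 (2.27% of all genes) and 14 in WPMY-1 (6.51%), and 0 were lower in either line (1.86% and 4.67%). The methods' t-test after Benjamini-Hochberg adjustment also called 0 in each line.

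The arrays of a line did not overlap, with both Pao arrays above both vehicle arrays, for 15 members in BPH-1 cells (37.5%, against 14.4% of all genes) and for 18 in WPMY-1 cells (45%, against 27%). Both Pao arrays lay below both vehicle arrays for CTSL and TFEB in BPH-1 (18.8% of all genes) and for 0 members in WPMY-1 (16.6%). Higher without overlap in both lines were 11 members (27.5%, against 3.98% of all genes). These were the hydrolases NEU1 and ASAH1, the saposin precursor PSAP, the membrane proteins LAMP2, MCOLN3 and CTNS, and the V-ATPase parts ATP6V0D1, ATP6V1B2, ATP6V1C1, ATP6V1D and ATP6AP1.

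The study set a cutoff of 1.4-fold (0.49 on the log2 scale), which was applied here to the difference of the group means, without a test. MCOLN3 alone was past it upwards in BPH-1 cells (0.236% of all genes), and MCOLN3, NEU1, TPP1 and CTNS were in WPMY-1 cells (0.392%). No member was past it downwards (0.0623% of all genes in BPH-1 and 0.632% in WPMY-1). Just inside lay CTNS at a log2 fold change of 0.49 in WPMY-1 cells. Just outside lay NEU1 at 0.45 in BPH-1, and GRN at 0.48 and CLCN7 at 0.44 in WPMY-1. Single arrays moved these counts. The count past 1.4-fold in WPMY-1 was 1 without vehicle replicate 1, 2 without Pao replicate 2, and 8 without vehicle replicate 2 or Pao replicate 1. In BPH-1 it was 2 without vehicle replicate 2 or Pao replicate 2. With each array centred, 2 members were past 1.4-fold in WPMY-1 cells. The share of all genes past 1.4-fold was not counted in these settings, so the counts say nothing particular to the members.

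**Figure D2:**
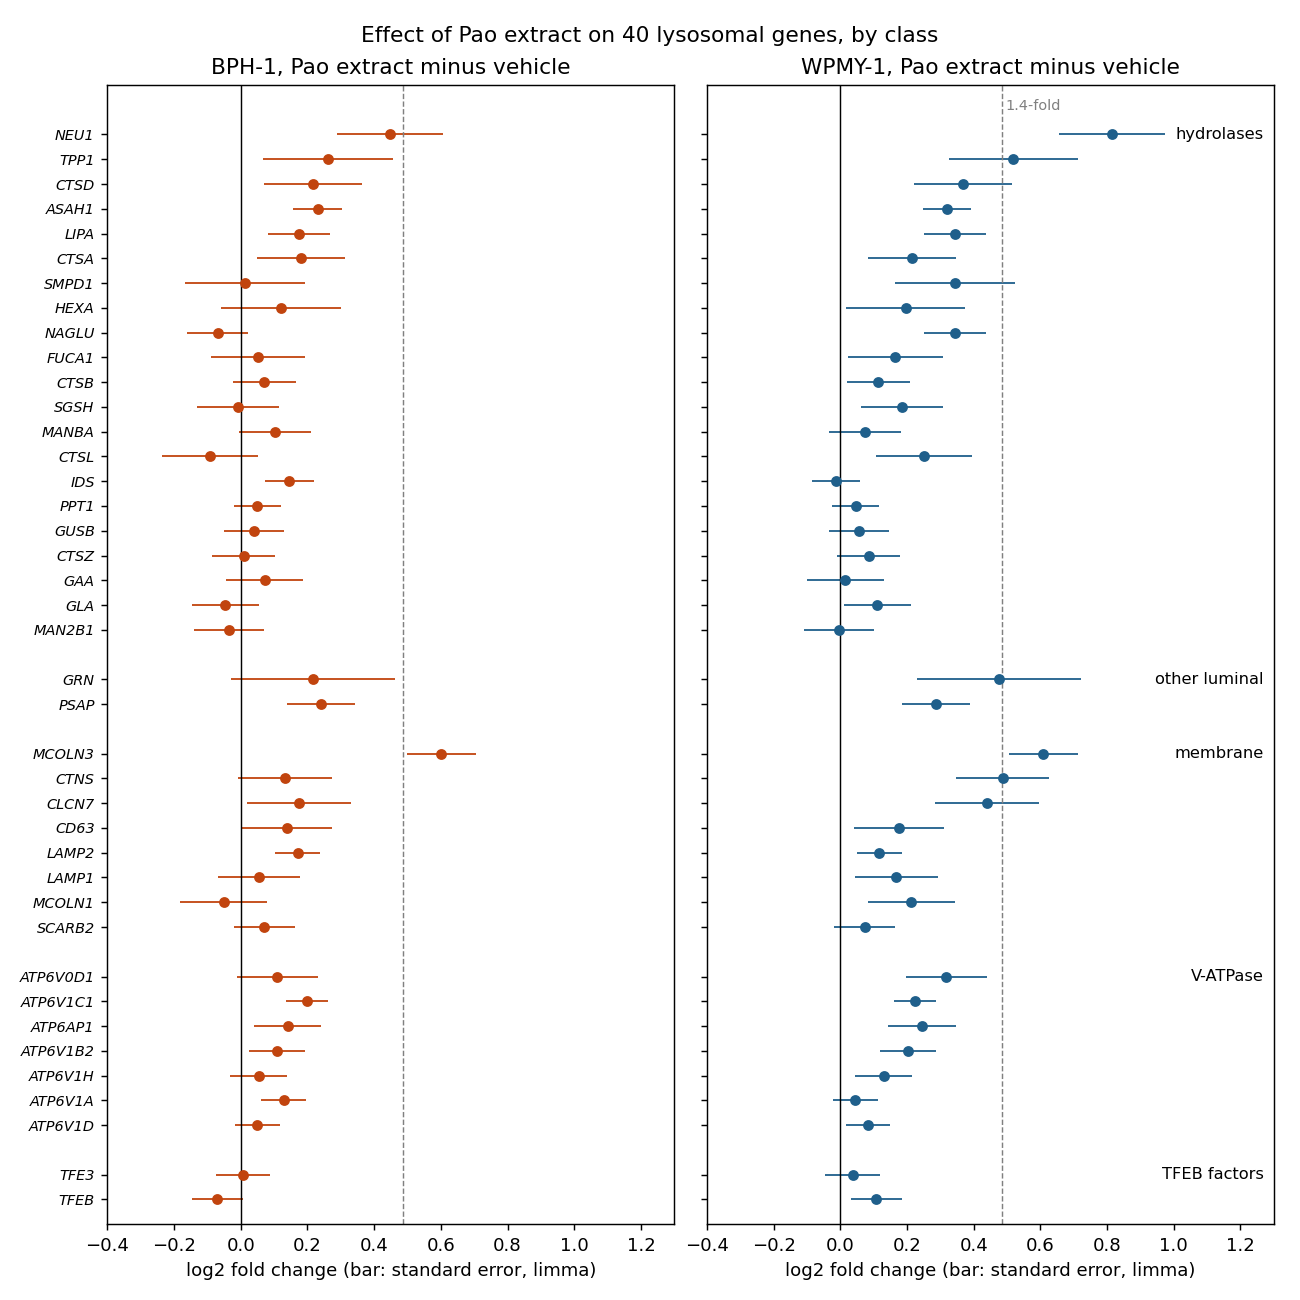
Log2 fold change of each of the 40 members, Pao extract minus vehicle, in BPH-1 cells (left) and WPMY-1 cells (right), grouped by class, with bars for the standard error from limma (2 arrays a group). The dashed line marks 1.4-fold, and in both panels most points lie to the right of 0, with MCOLN3 past the line in both and NEU1, TPP1 and CTNS past it in WPMY-1.

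Among the 21 measured hydrolases the median log2 fold change was 0.07 in BPH-1 cells, with a range of -0.09 to 0.45, and 0.18 in WPMY-1 cells, with a range of -0.01 to 0.82. Means were higher with Pao extract for 16 in the BPH-1 line and 19 in the WPMY-1 line. NEU1, the sialidase that removes terminal sialic acids from glycans, was highest in both lines. In WPMY-1 cells NEU1 was at 7.79 and 8.16 with Pao extract, against 6.94 and 7.38 with vehicle, a log2 fold change of 0.82 ± 0.16 (SE, n = 2 arrays a group, limma adjusted p = 0.169). In BPH-1 cells it was at 6.86 and 6.70 with Pao extract, against 6.32 and 6.35 with vehicle, a log2 fold change of 0.45 ± 0.16. The arrays did not overlap in either line, and the vehicle level was lower in BPH-1 than in WPMY-1 cells.

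TPP1, a peptidase that takes tripeptides from the ends of proteins, was next. Its values in WPMY-1 cells were 7.98 and 8.45 with Pao extract, against 7.49 and 7.90 with vehicle, a log2 fold change of 0.52 ± 0.19 (limma adjusted p = 0.417). In BPH-1 cells they were 7.72 and 7.97 with Pao extract, against 7.41 and 7.75 with vehicle, a log2 fold change of 0.26 ± 0.19. TPP1 arrays overlapped in BPH-1 and by a narrow margin did not in WPMY-1 cells. ASAH1, the acid ceramidase, had a smaller but tighter difference in both lines, and it is given here after its values were seen. It was at 7.68 and 7.64 with Pao extract, against 7.46 and 7.40 with vehicle, in BPH-1 cells (0.23 ± 0.07). It was at 7.08 and 7.20 with Pao extract, against 6.78 and 6.86 with vehicle, in WPMY-1 cells (0.32 ± 0.07, limma adjusted p = 0.235).

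CTSL, a cysteine protease, had the lowest log2 fold change of the hydrolases in BPH-1 cells and IDS, which cleaves sulfate from heparan and dermatan sulfate, had it in WPMY-1 cells. CTSL was at 8.18 and 8.03 with Pao extract, against 8.21 and 8.19 with vehicle, in BPH-1 (-0.09 ± 0.14). In WPMY-1 it was at 8.79 and 9.09 with Pao extract, against 8.48 and 8.90 with vehicle (0.25 ± 0.14). The sign of CTSL thus differed between the lines, while the difference of the effects, 0.34 ± 0.20, had a limma adjusted p of 0.696. IDS was at 8.26 and 8.40 with Pao extract, against 8.34 and 8.34 with vehicle, in WPMY-1 (-0.01 ± 0.07). In BPH-1 it was at 7.83 and 7.74 with Pao extract, against 7.63 and 7.66 with vehicle (0.15 ± 0.07), without overlap.

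The other hydrolases spanned log2 fold changes of -0.07 to 0.22 in BPH-1 and -0.00488 to 0.37 in WPMY-1 cells. They were the proteases CTSA, CTSB, CTSD and CTSZ, the glycosidases GLA, GUSB, HEXA, GAA, MANBA, MAN2B1 and FUCA1, the heparan sulfate enzymes SGSH and NAGLU, the lipid enzymes SMPD1 and LIPA, and the thioesterase PPT1. Of these, CTSD, NAGLU and LIPA were higher without overlap in WPMY-1 cells and PPT1 in BPH-1 cells. CTSD, an aspartic protease, had a log2 fold change of 0.22 ± 0.15 in the BPH-1 line and 0.37 ± 0.15 in the WPMY-1 line. LIPA, which hydrolyses cholesteryl esters and triglycerides, had 0.17 ± 0.09 in the BPH-1 line and 0.34 ± 0.09 in the WPMY-1 line.

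PSAP, the precursor of the saposins that help enzymes to reach sphingolipids, and GRN, the precursor of the granulins, had higher means with Pao extract in both lines. PSAP was at 9.30 and 9.43 with Pao extract, against 9.02 and 9.23 with vehicle, in BPH-1 cells (0.24 ± 0.10). It was at 9.54 and 9.72 with Pao extract, against 9.28 and 9.41 with vehicle, in WPMY-1 cells (0.29 ± 0.10). The arrays of PSAP did not overlap in either line. GRN was at 8.31 and 8.82 with Pao extract, against 8.07 and 8.63 with vehicle, in BPH-1 cells (0.22 ± 0.25). It was at 8.73 and 9.14 with Pao extract, against 8.25 and 8.68 with vehicle, in WPMY-1 cells (0.48 ± 0.25). GRN had the widest error of the 40 members, and its arrays overlapped in BPH-1 and not in WPMY-1 cells.

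**Figure D3:**
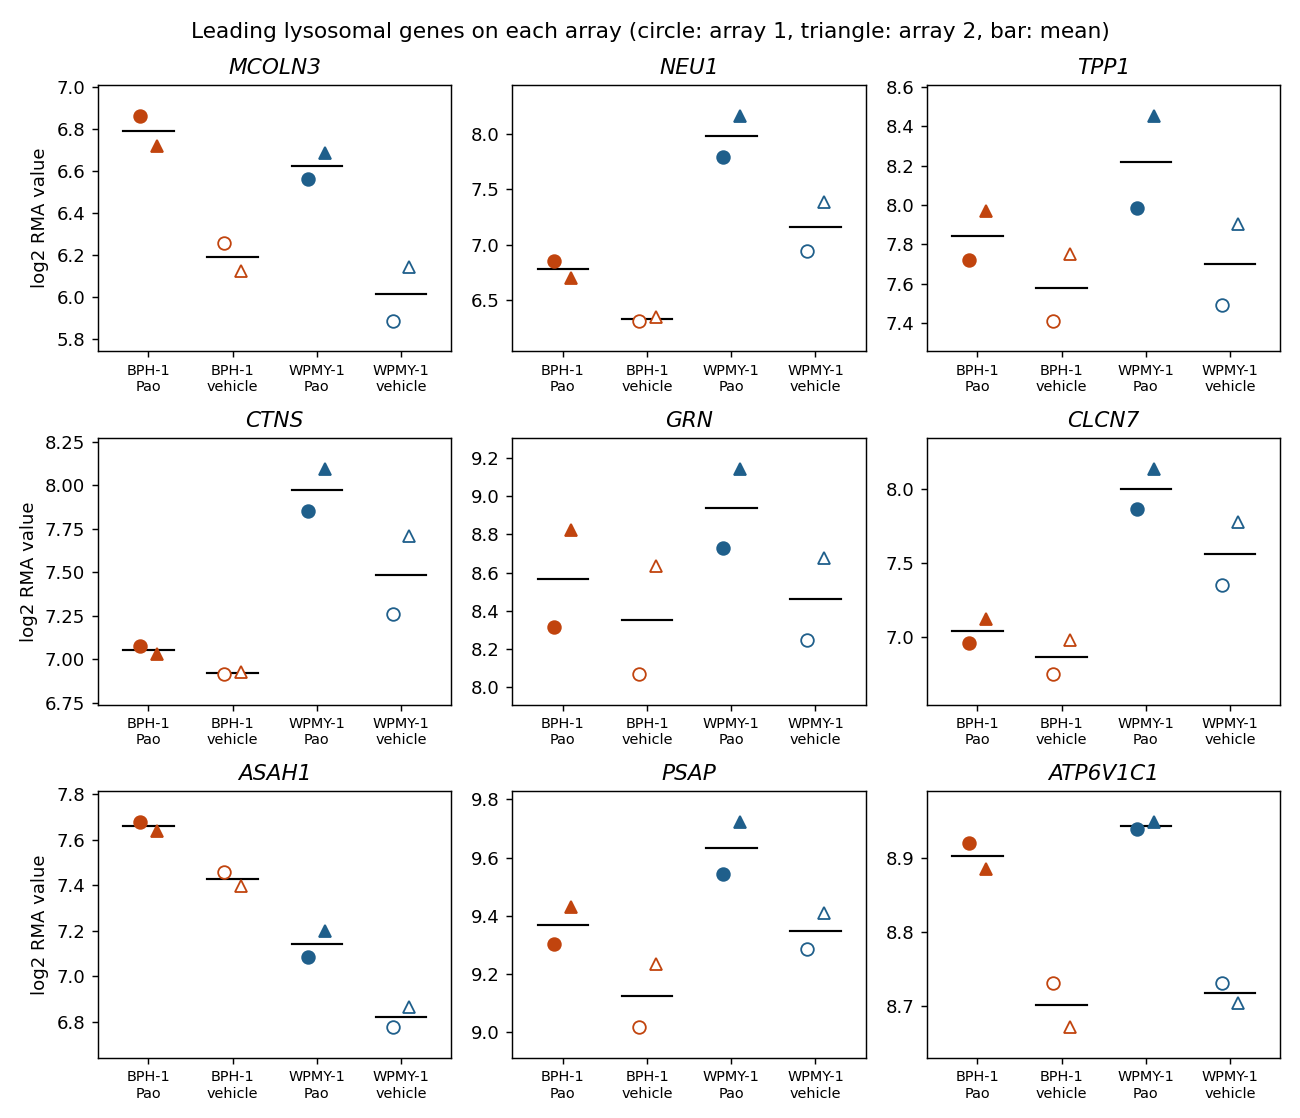
Log2 RMA values of 9 members on each array, with circles for array 1, triangles for array 2 and a bar for the mean of each group, Pao extract filled and vehicle open, BPH-1 on the left of each panel and WPMY-1 on the right. For MCOLN3, NEU1, CTNS, ASAH1, PSAP and ATP6V1C1 both Pao arrays lie above both vehicle arrays in both lines, while for TPP1, GRN and CLCN7 they do so in WPMY-1 alone.

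Of the 8 membrane proteins, 7 had a higher mean with Pao extract in the BPH-1 line and 8 in the WPMY-1 line, with medians of 0.14 and 0.19. MCOLN3, the cation channel TRPML3 of endosomes and lysosomes, had nearly the same log2 fold change in both lines. It was at 6.86 and 6.72 with Pao extract, against 6.26 and 6.12 with vehicle, in BPH-1 cells (0.60 ± 0.10, limma adjusted p = 0.764). It was at 6.56 and 6.69 with Pao extract, against 5.89 and 6.14 with vehicle, in WPMY-1 cells (0.61 ± 0.10, limma adjusted p = 0.144). The groups did not overlap, and the difference of the effects was 0.01, with a 95% confidence interval of -0.33 to 0.35. MCOLN1, the related calcium channel TRPML1, had smaller values of opposite sign in the lines. It was at 7.16 and 7.04 with Pao extract, against 7.18 and 7.13 with vehicle, in BPH-1 cells (-0.05 ± 0.13). It was at 7.70 and 7.59 with Pao extract, against 7.21 and 7.65 with vehicle, in WPMY-1 cells (0.21 ± 0.13). The arrays of MCOLN1 overlapped in both lines, and its promoter held 2 CLEAR cores where that of MCOLN3 held none.

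CTNS, which exports cystine from lysosomes, was at 7.85 and 8.09 with Pao extract, against 7.26 and 7.71 with vehicle, in WPMY-1 cells (0.49 ± 0.14, limma adjusted p = 0.338). In BPH-1 cells it was at 7.07 and 7.03 with Pao extract, against 6.92 and 6.92 with vehicle (0.13 ± 0.14). The arrays of CTNS did not overlap in either line. CLCN7, which exchanges chloride for protons, was at 7.87 and 8.14 with Pao extract, against 7.35 and 7.78 with vehicle, in WPMY-1 cells (0.44 ± 0.16, limma adjusted p = 0.406). In BPH-1 cells it was at 6.95 and 7.12 with Pao extract, against 6.75 and 6.98 with vehicle (0.17 ± 0.16), with overlap. SCARB2, the receptor LIMP-2 that carries glucocerebrosidase to lysosomes, had the lowest value of the class in WPMY-1 cells. It was there at 8.56 and 8.65 with Pao extract, against 8.44 and 8.64 with vehicle (0.07 ± 0.09), and at 7.61 and 7.76, against 7.57 and 7.66, in BPH-1 cells (0.07 ± 0.09). The structural proteins LAMP1 and LAMP2 and the tetraspanin CD63 had log2 fold changes of 0.05 to 0.17 in BPH-1 and 0.12 to 0.18 in WPMY-1 cells.

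All 7 V-ATPase members had a higher mean with Pao extract in both lines. The medians were 0.11 in the BPH-1 line and 0.20 in the WPMY-1 line, and no member was past 1.4-fold. Some of these signs changed under alternatives. In WPMY-1 cells ATP6V1A lay just below 0 with each array centred on its median, and ATP6V1D lay below 0 with the mean of all its probe sets. In BPH-1 cells ATP6V1H lay below 0 without Pao replicate 1. In each line 6 of the 7 were higher without overlap (85.7%, against 14.4% of all genes in BPH-1 and 27% in WPMY-1), 5 of them in both (71.4%, against 3.98%). ATP6V1C1, a subunit of the stalk that joins the V1 and V0 sectors, was the tightest. It was at 8.92 and 8.88 with Pao extract, against 8.73 and 8.67 with vehicle, in BPH-1 cells (0.20 ± 0.06). It was at 8.94 and 8.95 with Pao extract, against 8.73 and 8.70 with vehicle, in WPMY-1 cells (0.22 ± 0.06, limma adjusted p = 0.332). Both lines thus stood at nearly the same level in each treatment for this gene. ATP6V0D1, of the membrane sector V0, was at 8.10 and 8.44 with Pao extract, against 7.83 and 8.07 with vehicle, in WPMY-1 cells (0.32 ± 0.12). In BPH-1 cells it was at 7.72 and 7.64 with Pao extract, against 7.56 and 7.58 with vehicle (0.11 ± 0.12). These arrays did not overlap in either line.

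ATP6AP1, an accessory protein needed to assemble the pump, was at 8.18 and 8.25 with Pao extract, against 8.03 and 8.11 with vehicle, in BPH-1 cells (0.14 ± 0.10). It was at 8.57 and 8.81 with Pao extract, against 8.34 and 8.55 with vehicle, in WPMY-1 cells (0.25 ± 0.10). The lowest of the class were ATP6V1D, of the central rotor, in BPH-1 cells and ATP6V1A, the catalytic subunit, in WPMY-1 cells. ATP6V1D was at 8.47 and 8.47 with Pao extract, against 8.45 and 8.40 with vehicle, in BPH-1 cells (0.05 ± 0.07), and at 8.15 and 8.22, against 8.14 and 8.06, in WPMY-1 cells (0.08 ± 0.07). ATP6V1A was at 8.00 and 8.09 with Pao extract, against 8.02 and 7.98 with vehicle, in WPMY-1 cells (0.05 ± 0.07), and at 8.02 and 8.07, against 7.89 and 7.94, in BPH-1 cells (0.13 ± 0.07). ATP6V1A was the V-ATPase member that overlapped in WPMY-1 and ATP6V1H the one that overlapped in BPH-1. ATP6V1B2 and ATP6V1H, both of the V1 sector, were smaller in BPH-1 cells, at 0.11 and 0.05 on the log2 scale, than in WPMY-1 cells, at 0.20 and 0.13.

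The mRNAs of the TFEB factors had values close to 0 in both lines. TFEB was at 5.27 and 5.33 with Pao extract, against 5.34 and 5.40 with vehicle, in BPH-1 cells (-0.07 ± 0.08). In WPMY-1 cells it was at 5.24 and 5.39 with Pao extract, against 5.17 and 5.24 with vehicle (0.11 ± 0.08). The Pao arrays thus lay below the vehicle arrays by a narrow margin in BPH-1, and the arrays touched in WPMY-1. TFE3 was at 7.38 and 7.39 with Pao extract, against 7.33 and 7.43 with vehicle, in BPH-1 cells (0.01 ± 0.08), and at 7.85 and 7.99, against 7.81 and 7.96, in WPMY-1 cells (0.04 ± 0.08). The 95% confidence intervals of TFEB were -0.24 to 0.10 in BPH-1 and -0.07 to 0.28 in WPMY-1 cells, and those of TFE3 were -0.18 to 0.19 and -0.15 to 0.22.

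The difference of the Pao effects between the lines, WPMY-1 minus BPH-1, was tested itself. It was called for 0 of 40 members (0% of all genes), with a lowest limma adjusted p of 0.686. It was above 0 for 34 of 40 members (85%) and for 59.8% of all genes, with a median of 0.08 over the members and 0.04 over all genes. At an unadjusted p under 0.05 it was larger in WPMY-1 for NAGLU (4.53% of all genes) and larger in BPH-1 for 0 members (2.6%). NAGLU, which takes N-acetylglucosamine from heparan sulfate, was singled out by this value. It was at 6.68 and 6.82 with Pao extract, against 6.34 and 6.48 with vehicle, in WPMY-1 cells (0.34 ± 0.09). In BPH-1 cells it was at 6.26 and 6.37 with Pao extract, against 6.30 and 6.47 with vehicle (-0.07 ± 0.09). The difference for NEU1 was 0.37, with a 95% confidence interval of -0.15 to 0.88. Across the 40 members the log2 fold changes in the lines had a Pearson correlation of 0.67 and a Spearman correlation of 0.52, and across all genes 0.06 and -0.02. These describe genes that share the same 8 arrays and are not independent replicates.

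**Figure D4:**
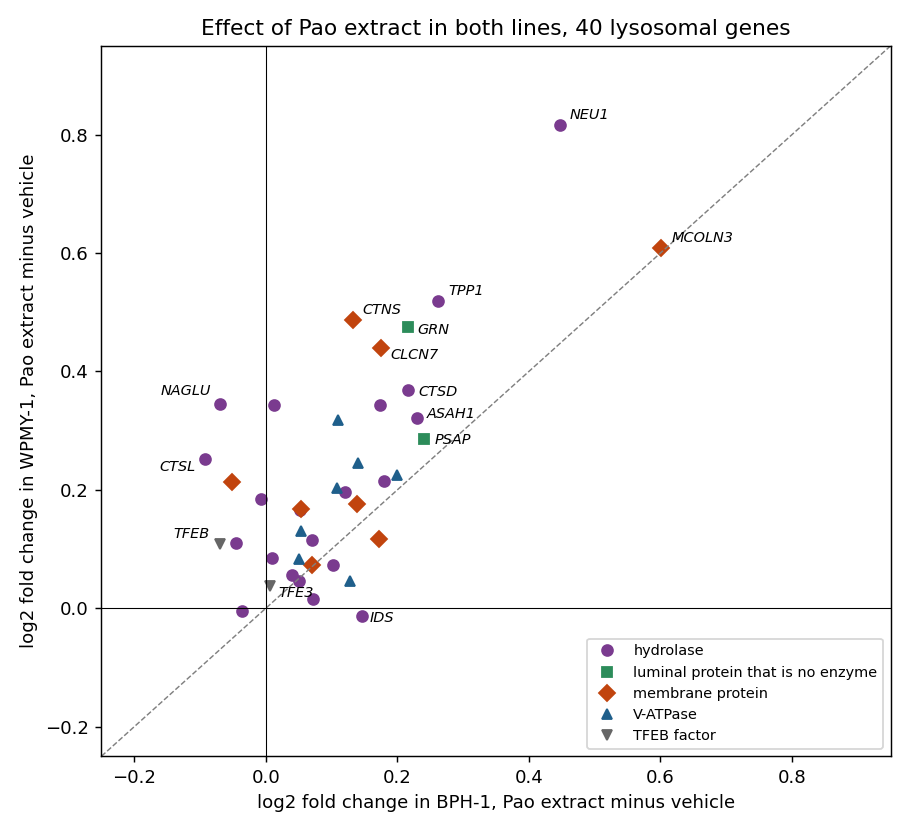
Log2 fold change of the 40 members, Pao extract minus vehicle, in BPH-1 cells on the horizontal axis and in WPMY-1 cells on the vertical axis, with 1 point for each gene, coloured by class. NEU1 and MCOLN3 stand apart at the upper right, and 34 of the 40 points have the larger value in WPMY-1 cells.

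With vehicle, the lines differed in 22 of these genes, with hydrolases on both sides. BPH-1 cells were higher than WPMY-1 cells for 8 of 40 members (20%, against 15.6% of all genes) and lower for 14 (35%, against 15.3%) at limma's adjusted p under 0.05. Higher in BPH-1 were the hydrolases CTSB, CTSZ, GAA, MAN2B1, ASAH1 and FUCA1 and the V-ATPase subunits ATP6V1D and ATP6V1H. Lower were the hydrolases CTSA, CTSL, NEU1, IDS, SMPD1 and PPT1, the membrane proteins LAMP1, CLCN7, CD63, SCARB2 and CTNS, and ATP6V0D1, ATP6AP1 and TFE3. Of the 8 membrane proteins, 0 were called higher in BPH-1 (against 15.6% of all genes) and 5 lower (62.5%, against 15.3%). Of 31 other lysosomal membrane proteins outside the list, 9 were called higher (29%) and 8 lower (25.8%), so that pattern did not extend to them. Leaving out a single vehicle array moved these counts, mostly down, and the counts over all genes fell too. Such a fit leaves 1 array in a group, so its counts are not given. After a further quantile normalization 8 were higher and 9 lower (3419 and 3519 of all genes). With each array centred on its median 5 were higher and 17 lower (2494 and 5141 of all genes). In the main fit 3495 of all genes were higher and 3442 lower, so centring moved the counts of all genes too. The methods' t-test, which takes the spread of each gene from its own arrays, called 0 in either direction (13 and 17 of all genes).

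CTSZ, a carboxypeptidase, had the largest difference upwards, at 8.05 and 8.27 in BPH-1, against 7.17 and 7.36 in WPMY-1 vehicle cells (0.90 ± 0.09, limma adjusted p = 0.000155). FUCA1, which removes fucose, was at 7.07 and 7.17 in BPH-1, against 6.25 and 6.57 in WPMY-1 (0.71 ± 0.14, adjusted p = 0.00541). GAA, which degrades glycogen, was at 6.80 and 7.04 in BPH-1, against 6.14 and 6.37 in WPMY-1 (0.67 ± 0.12, adjusted p = 0.00247). The arrays of the lines did not overlap for any of these genes. SMPD1, the acid sphingomyelinase, had the largest difference downwards, at 6.23 and 6.59 in BPH-1, against 7.66 and 8.09 in WPMY-1 (-1.46 ± 0.18, adjusted p = 0.000373). SCARB2 was at 7.57 and 7.66 in BPH-1, against 8.44 and 8.64 in WPMY-1 (-0.92 ± 0.09, adjusted p = 0.000116). NEU1 was at 6.32 and 6.35 in BPH-1, against 6.94 and 7.38 in WPMY-1 (-0.83 ± 0.16, adjusted p = 0.00434). With Pao extract NEU1 in BPH-1 cells, at 6.86 and 6.70, stayed below both vehicle arrays of WPMY-1 cells.

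**Figure D5:**
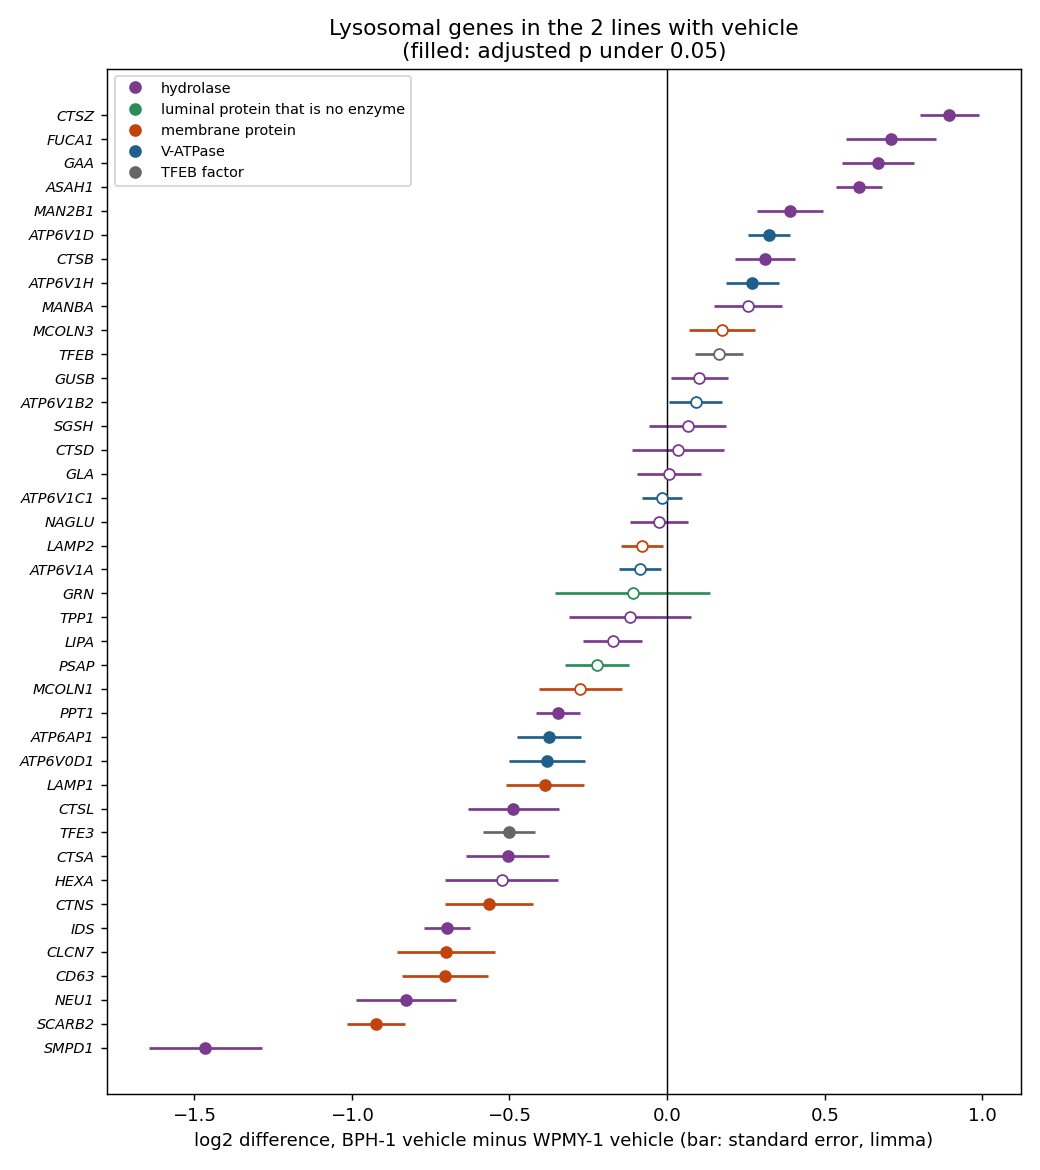
Log2 difference of each member between the lines with vehicle, BPH-1 minus WPMY-1, with bars for the standard error from limma (2 arrays a group), coloured by class and filled where the adjusted p was under 0.05. The 8 filled points at the top run up to 0.90 for CTSZ and the 14 at the bottom down to -1.46 for SMPD1. The lower group holds 5 of the 8 membrane proteins (62.5%, against 15.3% of all genes and 25.8% of 31 other lysosomal membrane proteins).

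Members with an E-box in the RefSeq promoter (n = 9) had a median log2 fold change of 0.14 in the BPH-1 line and 0.22 in the WPMY-1 line, and those without (n = 19) had 0.05 and 0.11. Members with the CLEAR core (n = 5) had 0.07 and 0.21, and those without (n = 23) had 0.07 and 0.18. These values are a description. The genes with printed promoters were chosen by such values. Of these, ATP6V0D1, CTSA, LAMP1 and MCOLN1 had log2 fold changes of 0.32, 0.22, 0.17 and 0.21 in WPMY-1 cells. In BPH-1 cells they had 0.11, 0.18, 0.05 and -0.05. GAA, which holds the CLEAR core but is not printed, had 0.01 in WPMY-1 and 0.07 in BPH-1 cells. NEU1 had 0.82 in the WPMY-1 line and 0.45 in the BPH-1 line.

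A further 118 lysosomal genes outside the list, of which 103 were measured, were read in the same way, and limma called 0 of them in either line. Their median log2 fold change was 0.05 in the BPH-1 line and 0.08 in the WPMY-1 line. Both Pao arrays lay above both vehicle arrays for 30 in the BPH-1 line (29.1%, against 14.4% of all genes) and 36 in the WPMY-1 line (35%, against 27%). They lay below them for 12 in the BPH-1 line (11.7%, against 18.8% of all genes) and 6 in the WPMY-1 line (5.83%, against 16.6%). Past 1.4-fold upwards were FNIP1 in BPH-1 (0.236% of all genes) and GPNMB, NPC1 and SLC17A5 in WPMY-1 cells (0.392%), and none was past it downwards (0.0623% and 0.632%). At an unadjusted p under 0.05, 5 were higher (4.85%, against 2.27% of all genes) and 1 lower (0.971%, against 1.86%) in BPH-1 cells. In WPMY-1 cells 20 were higher (19.4%, against 6.51%) and 1 lower (0.971%, against 4.67%).

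Of 31 other lysosomal membrane proteins (34 listed), NPC1, which moves cholesterol out of lysosomes, had the largest value. It was at 9.04 and 9.17 with Pao extract, against 8.36 and 8.49 with vehicle, in WPMY-1 cells (0.68 ± 0.10, limma adjusted p = 0.0954). It was at 8.77 and 8.52 with Pao extract, against 8.22 and 8.16 with vehicle, in BPH-1 cells (0.45 ± 0.10, limma adjusted p = 0.771). The NPC1 arrays did not overlap in either line. SLC17A5, which exports sialic acid, had 0.38 ± 0.11 in the BPH-1 line and 0.49 ± 0.11 in the WPMY-1 line, also without overlap. SLC66A1, a transporter of cationic amino acids, had 0.07 and 0.41, and PIP4P1, a phosphoinositide phosphatase, had 0.13 and 0.40.

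Of 30 other hydrolases (38 listed), CTSC, the dipeptidyl peptidase that activates granule proteases, ran the other way in both lines. It was at 9.58 and 9.30 with Pao extract, against 9.93 and 9.66 with vehicle, in BPH-1 cells (-0.35 ± 0.11), and at 8.98 and 8.99, against 9.29 and 9.29, in WPMY-1 cells (-0.30 ± 0.11), without overlap in either. The others with large values were CTSK (0.00 in the BPH-1 line and 0.42 in the WPMY-1 line), the phospholipase PLA2G15 (0.11 and 0.34) and the nuclease DNASE2 (0.31 and 0.26). Of 16 other V-ATPase subunits (17 listed), ATP6V1E1 (0.16 and 0.32), ATP6V1G1 (0.09 and 0.21), ATP6V0A1 (0.09 and 0.20) and ATP6V0A2 (0.17 and 0.19) led, and the class median was 0.05 in the BPH-1 line and 0.10 in the WPMY-1 line. Without overlap, 7 of the 16 were higher and 5 lower in the BPH-1 line (43.8% and 31.2%, against 14.4% and 18.8% of all genes), and 7 were higher and 0 lower in the WPMY-1 line (43.8% and 0%, against 27% and 16.6%). The 5 that were lower, named after their values were seen, were ATP6V0E2 (-0.12 ± 0.10), ATP6V1B1 (-0.05 ± 0.08), ATP6V1C2 (-0.04 ± 0.07), ATP6V1G2 (-0.15 ± 0.07) and ATP6V1G3 (-0.06 ± 0.09), of which ATP6V1C2 and ATP6V1G3 lay near background.

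Of 16 regulators and relatives of TFEB (18 listed), the median was 0.04 in the BPH-1 line and 0.05 in the WPMY-1 line. FNIP1, a partner of folliculin in nutrient signalling, was at 8.24 and 8.08 with Pao extract, against 7.61 and 7.54 with vehicle, in BPH-1 cells (0.58 ± 0.09, limma adjusted p = 0.75), and had 0.25 ± 0.09 in WPMY-1 cells. RRAGC, a Rag GTPase that brings mTORC1 and TFEB to the lysosome, had 0.42 ± 0.13 in the BPH-1 line and 0.46 ± 0.13 in the WPMY-1 line, and its relative RRAGD had 0.17 and 0.39. GPNMB, a membrane glycoprotein known as a target of these factors, was at 6.52 and 6.95 with Pao extract, against 5.56 and 6.27 with vehicle, in WPMY-1 cells (0.82 ± 0.21, limma adjusted p = 0.298). In BPH-1 cells it lay between 4.07 and 4.14 on all 4 arrays, near background, so no fold change is given. Of 10 genes that sort enzymes to lysosomes (11 listed), IGF2R, the mannose 6-phosphate receptor, had 0.18 in the BPH-1 line and 0.23 in the WPMY-1 line, and GGA2, GNPTG and GGA1 had 0.08, 0.06 and -0.000966 in BPH-1 and 0.20, 0.14 and 0.13 in WPMY-1 cells.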

How the data were processed

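Total RNA of 8 samples was hybridised to Affymetrix Human Transcriptome Arrays, 2 for each line and treatment. The authors deposited log2 values after RMA (named without a version in the submitters' processing notes), a method that subtracts background, brings all arrays to the same distribution and summarises probes, for 67528 probe sets, and no columns of per-sample values were left unused (0). Array medians lay between 4.503 and 4.573. The genome build behind these probe sets was not given in the sources used here, the table holds no detection calls, and the number of arrays limits the precision. Names came from GEO's platform annotation: 23781 had 1 symbol, 1543 had several and were not named, and 42204 were not listed. Of the named ones, 21497 matched the RefSeq gene table by gene ID. For each of the 22465 genes (479 with several probe sets), 1 probe set was kept, that with the highest mean value.

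Groups were taken from the sample labels. All genes on the 8 arrays were fitted with group means in limma 3.58.1 in R 4.3.3 (4 residual and 4.24 prior degrees of freedom), and Benjamini-Hochberg adjustment was over all genes of a contrast. The script was tested on simulated data. Members and lists were chosen with earlier results of these data known. Array values are given for members past 1.4-fold in either line, the 2 highest and the lowest log2 fold changes of each class and line, TFEB and TFE3, and for the lines with vehicle the 3 highest and lowest, with ASAH1 and NAGLU added after their values were seen. Up to 4 genes with the largest values were named from each list of other lysosomal genes. Promoters, with the first listed start where a gene has several, were searched with Python 3.11.15. As alternatives, the values were quantile-normalized again or centred by array. Others were leaving out genes with a mean log2 value of 5 or lower, the mean of all probe sets, trend and robust moderation, a fit within the line, the methods' t-test, cutoffs of 1.3-fold and 1.5-fold, a replicate block and leaving out each array.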

Additional observations from a re-analysis of the deposited data

How the results depend on the processing

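No log2 fold change at or past 1.4-fold changed sign under any alternative, and smaller ones were not counted as reversals. The calls of Pao extract in BPH-1 cells and of the difference of the effects stayed at 0 members under all that were run. In WPMY-1 cells the calls went from 0 to 5 members with a replicate block, as given below. At most 10 log2 fold changes of members changed sign under any alternative. This was without BPH-1 Pao replicate 2, where only the 40 values of BPH-1 could change. Alternatives that altered only the test could not change a sign. The other counts and medians changed as follows, and the cause was not tested. With each array centred, 5 members were higher and 17 lower in BPH-1 than in WPMY-1 vehicle cells, against 8 and 14. Over all genes 2494 were then higher and 5141 lower, against 3495 and 3442. Centring also left 2 members past 1.4-fold in WPMY-1, against 4. After a further quantile normalization 8 members were higher and 9 lower in BPH-1 than in WPMY-1 vehicle cells, with 3419 and 3519 of all genes. The methods' t-test called 0 higher and 0 lower between the lines, with 13 and 17 of all genes. A cutoff of 1.5-fold left 2 members in WPMY-1, and one of 1.3-fold gave 2 in BPH-1, against 1. The share of all genes past a fold cutoff was counted in the main fit at 1.4-fold alone.

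Arrays of the lines and treatments carry the same replicate numbers, but the labels do not say what a number marks and each line has only 2 pairs, so the numbers were not read as pairing. The deviations of same-numbered arrays had a correlation of 0.50 for BPH-1 and 0.43 for WPMY-1 over all genes, and 0.90 and 0.64 over the members. With a replicate block, limma called 5 members higher in WPMY-1 (NEU1, TPP1, LIPA, GRN and MCOLN3), with 98 genes higher and 125 lower in all, against 10 and 5 without it. It called 0 members in BPH-1, and 11 higher and 17 lower between the lines, where it called 4922 genes higher and 4630 lower in all, against 3495 and 3442 without it.

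Leaving out each array in turn, the median of the members ran from 0.0436 to 0.140 in BPH-1 and from 0.0691 to 0.319 in WPMY-1, and the count past 1.4-fold from 1 to 2 and from 1 to 8 upwards and from 0 to 0 downwards. Between the lines, 5 to 8 members were called higher and 7 to 16 lower.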
